A study of Mus musculus with 7 samples.

Results

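To describe the smooth muscle compartment of the juvenile ventricular-subventricular zone (V-SVZ), the stem cell niche lining the lateral walls of the brain's lateral ventricles, cells were selected from a droplet single-cell RNA-seq series by the raw UMI counts of 3 genes. The rule kept cells with 500 to 7000 detected genes and at most 10% mitochondrial counts, and of these took every cell with at least 5 UMIs of Acta2, Myh11 and Tagln together, at most 1 UMI of Cldn5, and 0 UMIs of Mog and Csf1r. It returned 735 of 43346 kept cells, which is 1.70%. All 735 were chosen by the measured values of these 6 genes, so the levels of those genes are given below as a description and were not tested.

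The 3 control libraries were made from mice whose genotype label reads Prdmflox/flox, with no Cre allele in the label. The 3 Prdm16 cKO libraries were made from hGFAP-Cre+/-; Prdm16flox/flox mice, and the single double knockout (DKO) library from hGFAP-Cre+/-; Prdm16flox/flox; Vcam1flox/flox mice. Every library pooled the V-SVZ of 2 to 3 mice aged P31 to P33, so the library is the unit of replication, and no test sets the lone DKO library against the other genotypes. The Cre driver is active in radial glia and their progeny and is not directed at vascular smooth muscle, which has another origin, so Prdm16 was not targeted in the smooth muscle cells themselves by design. The controls have the floxed Prdm16 alleles and their label names no driver, so the driver and the deletion cannot be told apart.

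Vascular smooth muscle cells wrap arteries and arterioles, where they set vessel diameter. Phosphorylation of the myosin light chain by the kinase encoded by Mylk lets smooth muscle myosin, the product of Myh11, slide along filaments of Acta2 actin, and calcium release and uptake by the sarcoplasmic reticulum start and end each contraction. Pericytes sit on capillaries, share Notch3, Pdgfrb and Rgs5 with smooth muscle, and lack most of the contractile proteins. Ependymal cells, the multiciliated lining of the ventricles, are a separate lineage and are abundant in V-SVZ tissue. Transcription of many contractile genes is driven by serum response factor and its partner myocardin at a DNA element called the CArG box.

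The CArG box, a CC followed by 6 A or T bases and a GG, reads the same on both strands, and it was sought in the 250 bases before the RefSeq transcription start of each gene (GRCm38.p6). It occurred in 439 of 27025 genes with a promoter window, which is 1.62%. Of 33 genes, the contractile list with Acta2, Myh11 and Tagln, 29 had a window and 4 of them held the box (Cnn2, Myl6, Myl9 and Vcl). Of the 20 genes with the highest ratio in the strict cells defined below 15 had a window and 3 held it (Asb2, Fbxl22 and Myom1). The stretches given here lie outside annotated exons and run 5′ to 3′ with the box in capitals, to show the element where the lists hold it. The first is from the myosin light chain gene Myl9 (chr2:156775214-156775419, + strand, first base of the box 161 bases before the start). The next is from Vcl, which encodes the adhesion protein vinculin (chr14:20929148-20929397, +, 227 bases before). Then follow the calponin gene Cnn2 (chr10:79988350-79988583, +, 56 bases before) and Myom1, which encodes the M-line protein myomesin (chr17:71019307-71019520, +, 99 bases before, between exons of a longer transcript).
Myl9: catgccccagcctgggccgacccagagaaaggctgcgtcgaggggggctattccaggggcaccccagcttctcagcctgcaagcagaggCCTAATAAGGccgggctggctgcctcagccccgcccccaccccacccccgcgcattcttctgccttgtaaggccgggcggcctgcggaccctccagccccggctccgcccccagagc
Vcl: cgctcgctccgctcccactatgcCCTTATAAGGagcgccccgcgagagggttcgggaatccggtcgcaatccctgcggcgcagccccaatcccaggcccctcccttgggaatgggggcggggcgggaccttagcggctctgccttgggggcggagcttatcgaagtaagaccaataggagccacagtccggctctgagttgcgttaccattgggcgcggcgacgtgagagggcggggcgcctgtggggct
Cnn2: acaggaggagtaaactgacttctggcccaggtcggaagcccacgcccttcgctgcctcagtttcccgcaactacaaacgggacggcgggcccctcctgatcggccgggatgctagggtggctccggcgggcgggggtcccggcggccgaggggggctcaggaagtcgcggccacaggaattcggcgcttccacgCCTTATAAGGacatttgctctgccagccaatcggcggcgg
Myom1: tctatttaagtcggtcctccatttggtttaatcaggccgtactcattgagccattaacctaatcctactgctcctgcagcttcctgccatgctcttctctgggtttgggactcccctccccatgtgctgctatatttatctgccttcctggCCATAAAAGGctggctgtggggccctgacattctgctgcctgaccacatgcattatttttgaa
Acta2 held no exact box in its window, but held 2 matches in which 1 of the 6 middle bases was G or C, a looser pattern found, together with the exact box, in 2643 of the 27025 genes (9.78%). Both lie inside an exon of the GENCODE vM21 annotation, and 30 bases around each are given in the gene's 5′ to 3′ direction, at chr19:34255438-34255467 and chr19:34255388-34255417 (- strand).
Acta2, upstream match: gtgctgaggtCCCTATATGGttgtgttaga
Acta2, downstream match: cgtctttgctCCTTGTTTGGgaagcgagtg
These matches describe letters in the reference and no binding was measured. Tagln, Myh11, Aoc3 and Map3k7cl had no entry in the promoter table.

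The label of vascular smooth muscle was kept for a minority of the gated cells. This minority was chosen by the share of the gate genes, and markers outside the gate describe the cells so chosen. In 146 of the 735 cells the 3 gate genes made up at least 0.5% of all UMIs, and these cells are called strict, or smooth muscle-like, below. Outside the gate they carried Myl9, Tpm2, Mylk, Lmod1 and Smtn in every library, and Cnn1 in 5 of 7. The other 589 cells, called low-share cells, lay below 0.5%, and 520 of them held at least 10 UMIs of Ccdc153, Tmem212, Dynlrb2 and Foxj1, genes of the motile cilium that mark ependymal cells. The low-share cells also held UMIs of each marker just named, so presence alone does not separate the 2 groups. Their levels differed. The 30 genes of the contractile list, none of them a gate gene, summed to 2.11% to 3.66% of UMIs in the strict cells over the libraries. In the low-share cells they summed to 0.323% to 0.449%. Across the 735 cells the 20 genes with the highest ratio to all other kept cells opened with Tagln, Myh11, Acta2 and Sncg and went on with ciliary genes such as Spag17, Armc4, Ccdc180, Dnah12 and Hydin, which build or dock the axoneme. The low-share cells are therefore not called smooth muscle here.

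**Figure D1:**
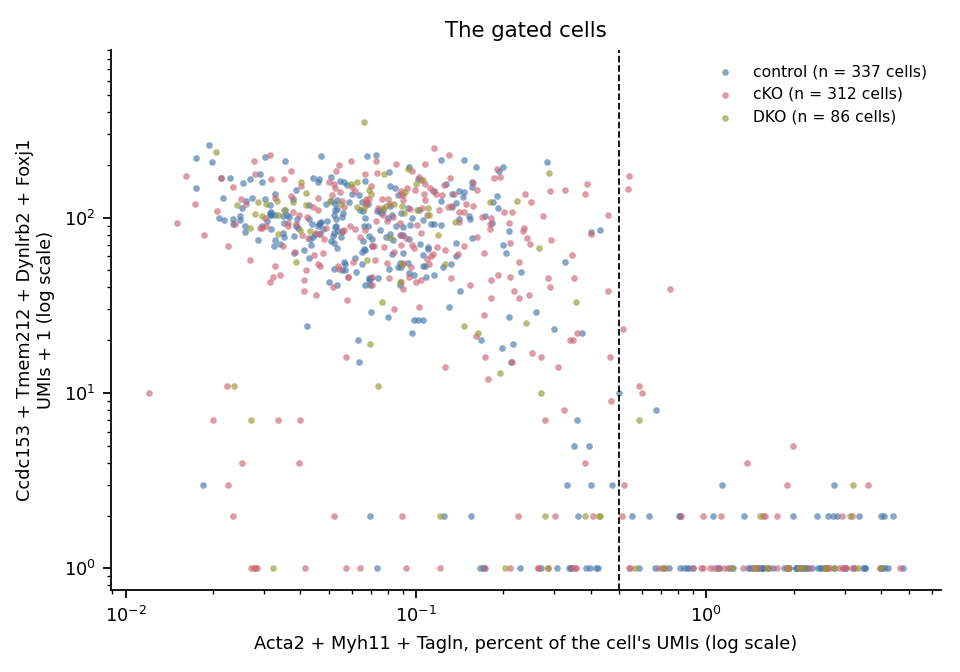
Each point is 1 of the 735 gated cells, placed by the percent of its UMIs from Acta2, Myh11 and Tagln (log scale) and by its UMIs of Ccdc153, Tmem212, Dynlrb2 and Foxj1 plus 1 (log scale), coloured by genotype; the dashed line marks 0.5%. Most low-share cells form a cloud of high ciliary counts left of the line, and of the 146 cells on its right only 5 have 10 or more ciliary UMIs, all from cKO libraries.

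The split by library was 103, 25 and 209 gated cells in control libraries 1 to 3, 124, 65 and 123 in cKO libraries 1 to 3, and 86 in the DKO library. The strict cells numbered 24, 11 and 39, then 21, 11 and 24, and 16. Strict cells with at least 10 ciliary UMIs were found only in cKO library 2 (3 of 11) and cKO library 3 (2 of 24). This cutoff is a count, so cells with few UMIs can fall below it. Control library 3 held strict cells with 9 ciliary UMIs of 2799 in the cell and 7 of 2971. The DKO library held a strict cell with 6 of 1024, and cKO library 3 a further cell with 9 of 1329. Of the 69 low-share cells without the ciliary signature, 44 held at least 5 UMIs of the pericyte genes Kcnj8, Abcc9, Vtn and Atp13a5, 33 held at least 5 UMIs of the fibroblast list, and 24 held neither. Scrublet marked 13 of the gated cells as doublets, 11 of them in control library 3, and none of the strict cells. No gated cell shared its barcode with a gated cell of another library, while pairs of libraries shared 2 to 70 barcodes among all kept cells.

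Levels of other genes went with the count of gate UMIs, a description without a test, since the bins are cut from the gate genes. The cells were divided at 10, 30, 100 and 300 gate UMIs into 5 bins of 250, 275, 110, 73 and 27 cells, and levels are CPM, the UMIs of a gene per 1000000 UMIs of the summed cells. From the lowest to the highest bin the sums gave 111, 179, 557, 3706 and 5838 CPM of Myl9, the regulatory light chain of smooth muscle myosin. Lmod1, an actin filament nucleator of smooth muscle, stood at 7.25, 11.2, 44.1, 469 and 803 CPM, and Mylk at 23.3, 32.3, 126, 1439 and 2210.3 CPM. Both climbed in steps of the same kind, with the largest step at 100 gate UMIs. Ccdc153, a gene of ciliated cells, went the other way with 1492, 1729, 1593, 241 and 10.2 CPM, and Aqp4, the water channel of astrocytes and ependyma, with 682, 698, 668, 58.8 and 10.2 CPM. Cells at the edge of the rule looked alike on either side of it. The 67 cells with exactly 5 gate UMIs had 1314 CPM of Ccdc153 and 147 CPM of Myl9. The 93 cells with exactly 4, which the rule left out, had 1505 and 129.7 CPM. At the 0.5% line, 14 cells lay between 0.4% and 0.5% and 13 between 0.5% and 0.6%.

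**Figure D2:**
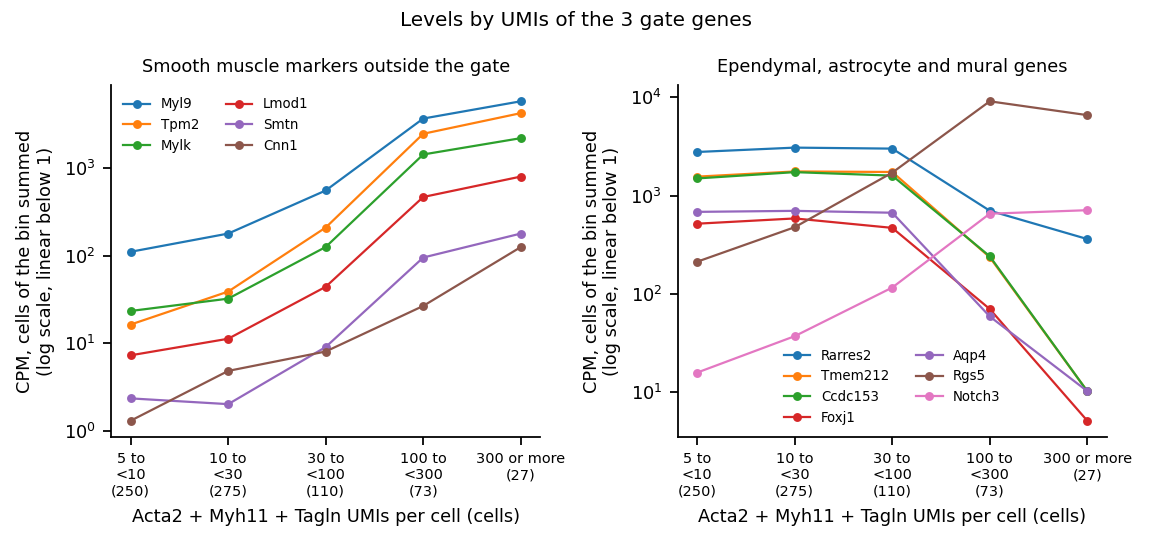
CPM (log scale, linear below 1) of 6 smooth muscle markers outside the gate (left) and of ependymal, astrocyte and mural genes (right), over the summed cells of each bin of gate UMIs, with the number of cells in brackets. The left-hand genes rise mainly above 30 gate UMIs, while Ccdc153, Tmem212, Foxj1 and Aqp4 drop in the bins from 100 gate UMIs on.

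The gate genes themselves were shared unequally by the ciliary cells. Over all 1593 kept cells with at least 10 ciliary UMIs, a set drawn without reference to the gate, Acta2 stood at 395 CPM (313 to 481 over the 7 libraries) and Tagln, the actin-binding protein transgelin, at 188 CPM. Myh11 stood at 0.503 CPM in the same cells. Of these cells 525 had passed the gate, which builds in part of their Acta2 and Tagln. The ciliary cells that the gate left out had 235 CPM of Acta2 (171 to 334 over the libraries), 115 CPM of Tagln and 0.650 CPM of Myh11. All kept cells that it left out, chosen by the same limits, had 27.0 CPM of Acta2, 16.9 CPM of Tagln and 5.02 CPM of Myh11. These levels of gate genes are a description. As a share, 33.0% of the ciliary cells passed the gate, from 16.9% in control library 2 to 41.5% in cKO library 2. Their UMIs per cell were high, with a median of 18460 in the low-share cells against 8053.5 in the strict cells, which makes a minimum of 5 UMIs easier to reach, and the part of depth in their passing was not tested.

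The strict cells held most genes of the contractile list in all libraries. Acta2 (chr19:34241090-34255590 in GENCODE vM21, GRCm38), the actin of vascular smooth muscle, stood at 10127, 16882 and 10089 CPM in control, 11544, 4909 and 8538 CPM in cKO and 11004 CPM in the DKO library, where 3 values for a genotype are libraries 1, 2 and 3 in that order here and throughout. Tagln (chr9:45929619-45936058) ranged from 4369 to 11019 CPM and Myh11 (chr16:14194535-14291372) from 1561 to 3458 CPM. For all 3 the lowest library was cKO 2, and these are the values that chose the cells. Outside the gate, Myl9 (chr2:156775420-156781658) stood at 3945, 6764 and 4891 CPM in control, 4572, 2481 and 3469 CPM in cKO and 4782 CPM in the DKO library, again lowest in cKO library 2. Tpm2, the muscle tropomyosin, ranged from 1434 to 3537 CPM, Mylk from 1101 to 1786 CPM and Lmod1 (chr1:135324807-135368065) from 280.1 to 745 CPM. Cnn1 and Actg2 were thin: Cnn1, the calponin that restrains actomyosin, was at 0 in control library 1 and cKO library 2 and otherwise reached 136 CPM, and Actg2, the actin of visceral smooth muscle, had 7 UMIs in all, in cKO libraries 1 and 2. As ratios to all other kept cells, Myh11, Aoc3, Olfr558, Pln and Map3k7cl led, with ratios of 578, 498, 493, 473 and 371. Aoc3 encodes the amine oxidase VAP-1 of vessel walls, Olfr558 a G protein-coupled receptor named as an olfactory receptor, and Pln phospholamban, the regulator of the sarcoplasmic reticulum calcium pump. RNA of other cell types was measured by summed lists. The 9 microglial genes summed to 0.00415% to 0.00775% of UMIs over the libraries with C1qa and C1qc at 0, while Csf1r is at 0 by the rule. The 12 endothelial genes summed to 0.0336% to 0.0543% with Cdh5 at 0, while Cldn5 is held to at most 1 UMI per cell by the rule. The 8 oligodendrocyte genes summed to 0.0394% to 0.114%, with Mog at 0 by the rule. The 10 fibroblast genes summed to 0.0485% to 0.211% with Lum at 0. The 7 ependymal genes summed to 0.119% to 0.173% in the control, DKO and first cKO libraries, and to 0.371% and 0.221% in cKO libraries 2 and 3. The 10 astrocyte and neural stem cell genes followed the same pattern, with 0.672% and 0.274% in cKO libraries 2 and 3 and 0.0897% to 0.115% in the others. The 20 mural and pericyte genes, several of which smooth muscle also expresses, summed to 1.36% to 2.66%. Of the 146 strict cells 99 held at least 5 UMIs of Kcnj8, Abcc9, Vtn and Atp13a5 and 76 at least 5 UMIs of the fibroblast list.

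Within the 146 strict cells, some genes ran with the share of the gate genes and others did not. Cells with shares of 0.5 to 1%, 1 to 2%, 2 to 4% and 4% or more (35, 48, 55 and 8 cells) had 53.4, 434, 960 and 1288 CPM of Pln. Cnn1 stood at 3.81, 10.1, 76.5 and 255 CPM and Csrp1, a LIM protein of smooth muscle, at 263, 406, 925 and 1884 CPM. All 3 were lowest in the first bin and highest in the last. Other contractile genes were not ordered in this way. Lmod1 (191, 416, 796 and 717 CPM) and Cald1 (2890, 3283, 4221 and 3002 CPM) were highest in the third bin. Tpm4 (484, 636, 339 and 243 CPM) and Cnn3 (370, 363, 220 and 194 CPM) were lowest in the last. Some pericyte genes ran in the opposite direction, with 3912, 2314, 1408 and 571 CPM of Vtn (vitronectin), 83.9, 30.3, 7.29 and 0 CPM of Kcnj8 (the pore of the ATP-sensitive potassium channel) and 41.9, 32.8, 0 and 0 CPM of Abcc9, its sulfonylurea receptor. Pdgfrb, the receptor through which mural cells are recruited, went from 709 to 279.5 CPM, and Rgs5, a regulator of G protein signalling, from 11182 to 3403 CPM with its top in the second bin. The mural genes Cspg4 (221, 373, 508 and 377 CPM) and Notch3 (698, 818, 749 and 438 CPM) were highest in middle bins. Casq2, a calcium store protein, stood at 194, 184, 153 and 24.3 CPM. The lowest bin also held ciliary RNA, with 614 CPM of Ccdc153 against 17.7 in the second, and its median UMI count was 5247 against 9941.5 in the last. The bins are cut from the gate genes, so these values are a description and carry no test, and the last bin rests on 8 cells of 4 libraries.

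**Figure D3:**
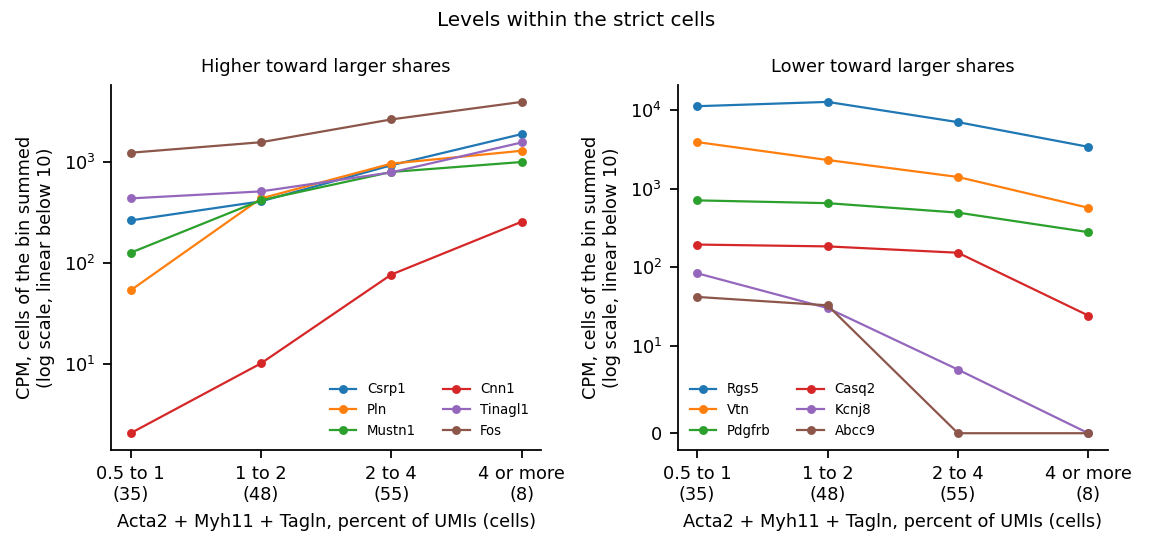
CPM (log scale, linear below 10) in the 146 strict cells, summed within 4 bins of the gate genes' share of UMIs, with cell numbers in brackets. Pln, Cnn1, Csrp1, Mustn1, Tinagl1 and Fos (left) are highest in the bin of 4% or more, and Rgs5, Vtn, Pdgfrb, Casq2, Kcnj8 and Abcc9 (right) are lowest there.

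To set the strict cells against the nearest mural cells, their summed counts in each library were compared with those of 749 pericyte-gated cells. These held at least 5 UMIs of Kcnj8, Abcc9, Vtn and Atp13a5 and at most 1 UMI of the 3 smooth muscle genes. The library was a block, and the genes of both gates were left out. Of 4980 genes tested, 964 (19.4%) were higher and 937 (18.8%) lower in the strict cells. The share of these genes whose strict and pericyte-gated libraries did not overlap was not counted. Where non-overlap, or the number of libraries in which a gene was higher, is given below for a single gene, it is a description. The contractile list was almost wholly higher and most of the fibroblast list lower, and the other vascular lists held both directions. Genes that go with the gate genes from cell to cell are tied to how both sets were chosen, so the counts measure how far apart the 2 selections lie. Pln, Sncg, Aoc3, Cav1, Olfr558, Ltbp1, Myom1 and Pdlim3 had 1 to 7 UMIs in the pericyte-gated cells. They passed the filter on low counts through the strict cells alone. Entry to the test thus fixed their direction, and their fold changes depend on the prior count. Slc22a8 and Slc6a13, with 3 and 4 UMIs in the strict cells, entered through the pericyte-gated cells in the same way. The pericyte-gated cells also held fibroblast RNA: their 10 fibroblast genes summed to 0.377% to 0.913% of UMIs over the libraries, and with only the pericyte-gated cells of at most 3 fibroblast UMIs 615 genes were higher and 462 lower of 2634 tested.

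Of the 27 contractile genes tested, 26 were higher in the strict cells and none lower, with a median log2 fold change of 2.60 against -0.06 over all genes tested. Of all genes tested 19.4% were higher and 18.8% lower. Pdlim3, a PDZ-LIM protein of actin bundles, had 183 UMIs in the strict cells and 1 UMI in the pericyte-gated cells, a CPM ratio of 488 with a 95% counting interval of 86.6 to 19397. Cav1, the coat protein of caveolae, ranged over the libraries from 160.1 to 282 CPM (median 251) in the strict cells and 0 to 5.63 CPM (median 0) in the pericyte-gated cells (log2 fold change 7.41). It had 296 UMIs against 4, a ratio of 198 with a counting interval of 76.3 to 730. Lmod1 ranged from 280.1 to 745 CPM (median 578) in the strict cells and 6.19 to 24.8 CPM (median 10.3) in the pericyte-gated cells (log2 fold change 5.62, SE 0.19, edgeR adjusted p = 4.63e-19), and the 2 cell groups did not overlap in either gene. Tpm2 rose by a log2 fold change of 4.76, Tpm1 by 3.62, Mustn1 by 4.21, Csrp1 by 3.90, the filament protein desmin (Des) by 2.67, filamin A (Flna) by 2.61, Mylk by 2.60 and Myl9 by 2.00. The light chains and kinase were thus not absent from the comparison cells, where Myl9 had a median of 1095 CPM. Cald1, caldesmon, differed least among the called genes (log2 fold change 0.33, SE 0.08, edgeR adjusted p = 0.00212). Ppp1r14a, the inhibitor of myosin phosphatase, was the 1 tested member that missed the threshold, at 280.1 to 715 CPM (median 497) in the strict cells and 285 to 516 CPM (median 457) in the pericyte-gated cells (log2 fold change 0.32, SE 0.13, edgeR adjusted p = 0.0588). Cnn1, Synpo2 and Actg2 did not pass the filter on low counts, and Cnn1 had 68 UMIs against 1 (ratio 182, counting interval 31.5 to 7273).

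Calcium and ion handling differed gene by gene, with 7 of 14 tested members higher and 3 lower (median log2 fold change 0.46). Over all genes tested 19.4% were higher and 18.8% lower, so the count of lower members was near the share of all genes. Pln (chr10:53337667-53345987) ranged from 180.1 to 1066 CPM (median 607) in the strict cells and 0 to 4.02 CPM (median 0) in the pericyte-gated cells (log2 fold change 8.84). It had 819 UMIs against 4, a ratio of 547 with a counting interval of 213 to 2011. Its partner Atp2a2, the calcium pump of the sarcoplasmic reticulum, rose with it (log2 fold change 1.81, SE 0.12, edgeR adjusted p = 2.79e-13), as did the plasma membrane pump Atp2b4 (log2 fold change 2.64, SE 0.19, edgeR adjusted p = 1.48e-12). These store and pump genes were higher in 7 of 7 libraries. The channel subunits that rose did so by less: the BK channel subunit Kcnmb1 by a log2 fold change of 1.33, the calcium channel subunit Cacnb2 by 1.46 and the chloride channel Ano1 by 1.06. The IP3 receptor Itpr2 ranged from 12.9 to 50.6 CPM (median 26.4) in the strict cells and 159 to 233 CPM (median 178) in the pericyte-gated cells, without overlap (log2 fold change -2.65, SE 0.22, edgeR adjusted p = 6.10e-11). The related receptor Itpr1 fell by less (log2 fold change -0.50, SE 0.17, edgeR adjusted p = 0.0308). The L-type calcium channel Cacna1c had 57.8 to 132 CPM (median 129) in the strict cells and 83.0 to 114 CPM (median 99.4) in the pericyte-gated cells and missed the threshold (log2 fold change 0.28, SE 0.18, edgeR adjusted p = 0.212). Kcnj8 and Abcc9, at medians of 28.9 and 15.1 CPM in the strict cells and 898 and 1076 CPM in the others, belong to the pericyte gate and were not tested.

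Receptors and second messengers of vessel tone were higher for 9 of 16 tested members and lower for 2 (median 0.37). The shares over all genes tested were 19.4% higher and 18.8% lower, and the lower members did not exceed theirs. Pde3a, a phosphodiesterase of cAMP, ranged from 447 to 765 CPM (median 615) in the strict cells and 58.8 to 158 CPM (median 115) in the pericyte-gated cells (log2 fold change 2.64, SE 0.23, edgeR adjusted p = 2.74e-06). The kinase Rock1, which raises calcium sensitivity, rose by a log2 fold change of 1.57, the neuropeptide Y receptor Npy1r by 1.21, the cGMP phosphodiesterase Pde5a by 0.88 and the cGMP kinase Prkg1 by 0.83. Npy1r was higher in 7 of 7 libraries and Pde5a in 6 of 7. The thromboxane receptor Tbxa2r fell (log2 fold change -1.01, SE 0.17, edgeR adjusted p = 1.89e-05), as did the soluble guanylyl cyclase subunit Gucy1b1 (log2 fold change -0.29, SE 0.10, edgeR adjusted p = 0.0221). Ednra, the endothelin receptor, had 174 to 251 CPM (median 184) in the strict cells and 130 to 279.6 CPM (median 204) in the pericyte-gated cells (log2 fold change 0.16, SE 0.13, edgeR adjusted p = 0.396), a difference within the spread between libraries. Rgs5 rose slightly (log2 fold change 0.61, SE 0.09, edgeR adjusted p = 8.19e-06) with overlapping libraries, and Rgs4 had a log2 fold change of -0.03 (SE 0.10).

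In the Notch and PDGF list, 6 of 12 tested genes were higher and 3 lower (median 0.42), beside 19.4% higher and 18.8% lower over all genes tested. Notch3, the mural Notch receptor, was 629.9 to 884 CPM (median 702) in the strict cells and 438 to 662 CPM (median 474) in the pericyte-gated cells (log2 fold change 0.69, SE 0.10, edgeR adjusted p = 2.78e-06). Its ligand Jag1 rose by a log2 fold change of 1.04, its target Hey2 by 0.84, and Nrip2, a nuclear receptor-interacting protein, from a median of 5.13 to 291 CPM (log2 fold change 5.49, SE 0.27, edgeR adjusted p = 1.33e-14). Ligands and receptors of the PDGF system parted. Pdgfa ranged from 427 to 637 CPM (median 520.2) in the strict cells and 43.6 to 86.3 CPM (median 67.4) in the pericyte-gated cells (log2 fold change 3.22, SE 0.13, edgeR adjusted p = 7.30e-18) and Pdgfb rose by a log2 fold change of 2.15. The receptor Pdgfrb was lower and ranged from 449 to 772 CPM (median 521) in the strict cells and 1407 to 1701 CPM (median 1572) in the pericyte-gated cells (log2 fold change -1.33, SE 0.11, edgeR adjusted p = 2.69e-11). Notch1 fell (log2 fold change -1.28, SE 0.15, edgeR adjusted p = 7.36e-08). None of Pdgfa, Pdgfrb and Notch1 overlapped between the 2 cell groups, with no share over all genes tested to set beside this.

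Among transcription factors, 9 of 16 tested were higher and 2 lower (median 0.36). Beside 19.4% higher and 18.8% lower over all genes tested, the count of lower members did not exceed the share of all genes. Myocd, the coactivator myocardin that defines the smooth muscle program, had 107 UMIs in the strict cells and 2 in the pericyte-gated cells (83.0 against 0.581 CPM, ratio 143, counting interval 38.6 to 1194). It was present in the strict cells of all 7 libraries but did not pass the filter of the fit. Klf4 (log2 fold change 2.98, SE 0.21, edgeR adjusted p = 3.46e-11) and Klf2 (log2 fold change 2.16, SE 0.32, edgeR adjusted p = 0.00149), Krüppel-like factors, rose, as did Prrx1 (log2 fold change 1.73) and Mef2c (1.24), the partner of several muscle regulators. The forkhead genes Foxf2 and Foxc1 were lower. Foxf2 differed more (log2 fold change -1.51, SE 0.23, edgeR adjusted p = 2.67e-06) and Foxc1 less (log2 fold change -0.54, SE 0.13, edgeR adjusted p = 0.00119). For Foxc1 the pooled level was 210.1 CPM in the strict cells, 329.7 in all pericyte-gated cells and 246 in those with at most 3 fibroblast UMIs.

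Matrix and growth factor genes were split, beside 19.4% higher and 18.8% lower over all genes tested. Single values in brackets are log2 fold changes of genes past the threshold. In the TGF-beta and BMP list 7 of 18 tested were higher and 4 lower (median -0.14), the lower count being near the share of all genes. Ltbp1, which tethers latent TGF-beta to the matrix, ranged from 193 to 504 CPM (median 283) in the strict cells and 0 to 4.02 CPM (median 3.09) in the pericyte-gated cells (log2 fold change 7.16). It had 395 UMIs against 7, a ratio of 151 with a counting interval of 72.4 to 377. Tgfb3 rose by a log2 fold change of 3.23 and Tgfb2 by 2.49, while Tgfb1 (-1.45) and Bmp4 (-2.35) were lower. The target genes Id1 (2.01), Smad7 (1.14) and Id3 (0.98) of TGF-beta and BMP signals were higher. In the basement membrane list 7 of 18 were higher and 7 lower (median -0.05), and laminin chains were found on both sides. Lama5 rose (log2 fold change 5.85, SE 0.31, edgeR adjusted p = 3.30e-15) with Lamb2 (1.12), while Lamb1 (log2 fold change -2.56, SE 0.20, edgeR adjusted p = 1.68e-11), Lama2 (-1.31), Lama4 (-1.31) and Lamc1 (-1.27) fell. The laminin receptor subunit Itga7 rose by a log2 fold change of 1.74. In the interstitial matrix list 8 of 22 were higher and 7 lower (median 0.11), with the collagen cross-linking enzyme Lox (3.24) and the calcification inhibitor Mgp (1.96) among the higher. Eln, elastin, was at 0 in control library 1 and at 60.0 to 145 CPM in the other 6, and was not tested. Dcn, decorin of fibroblasts, fell (log2 fold change -4.91, SE 0.49, edgeR adjusted p = 1.39e-04), but its pooled level was 648 CPM in all pericyte-gated cells and 14.8 in those with at most 3 fibroblast UMIs, against 19.4 in the strict cells. Dcn is itself one of the fibroblast genes that chose the smaller set. Of the fibroblast list 7 of 9 tested genes were lower, and of the mural and pericyte list 5 of 15 were higher and 8 lower. Among the higher were Aoc3 (317 against 2 UMIs, ratio 423, counting interval 116 to 3508) and Mcam (1.92). Among the lower were the aminopeptidase Anpep (-2.61), Art3 (-3.66) and the respiratory subunit Cox4i2 (-1.29).

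**Figure D4:**
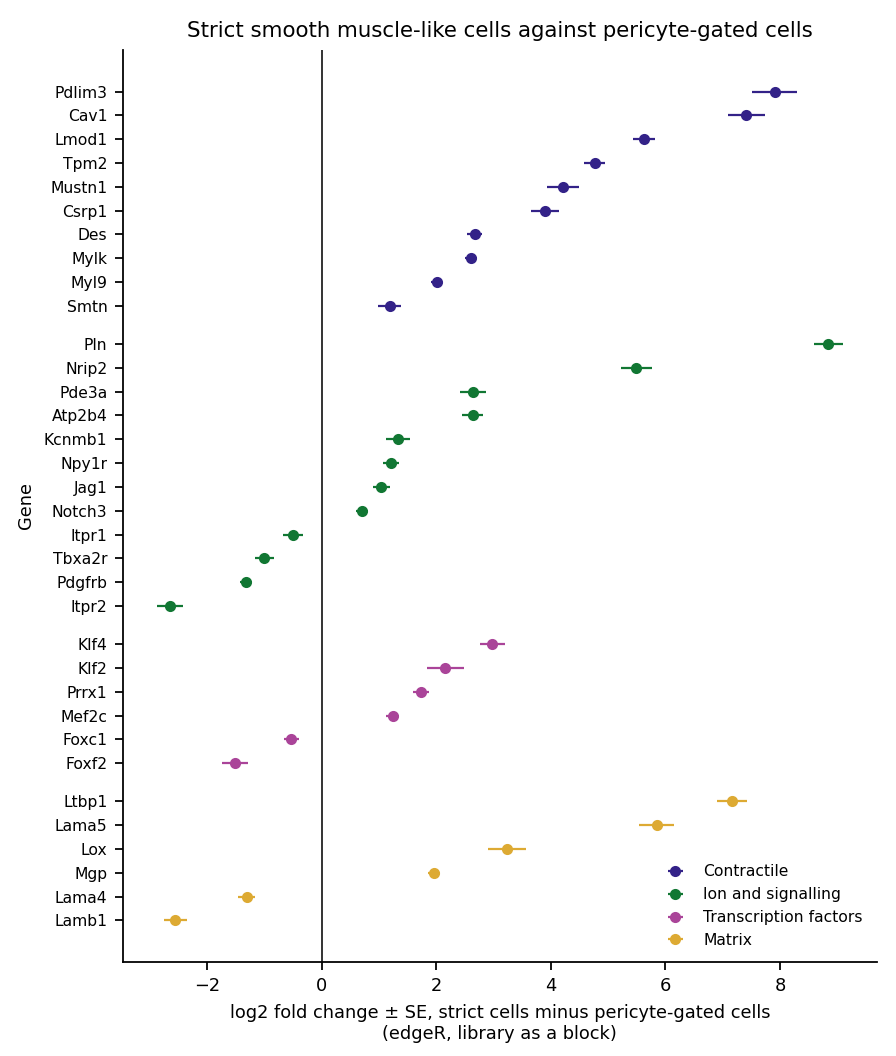
Log2 fold change with its standard error (edgeR, library as a block, 7 libraries) of named genes between the summed strict cells and the summed pericyte-gated cells, grouped by role; all genes drawn passed an adjusted p of 0.05. Contractile genes are all positive, and the ion, signalling, transcription factor and matrix groups hold both signs, from Pln at 8.84 to Itpr2 at -2.65. The bars of Pln, Cav1, Ltbp1 and Pdlim3, which had few UMIs in the pericyte-gated cells, are narrower than their counting error.

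Genes outside the lists with the largest differences were then read off by size among called genes whose mean log2 CPM reached 6. The higher side held Pln, Aoc3, Cav1, Ltbp1 and Lama5 again. It also held the synuclein Sncg (log2 fold change 8.40) with 830 UMIs against 6, a ratio of 369 with a counting interval of 169 to 1009. The receptor gene Olfr558 (log2 fold change 7.36) had 341 UMIs against 5, a ratio of 182 with a counting interval of 77.2 to 564. The M-line gene Myom1 rose by a log2 fold change of 6.75, the matricellular gene Tinagl1 by 6.25 and Map3k7cl by 6.14. These 5 were picked by the size of their rise, so being higher in 7 of 7 libraries followed from the choice. Sncg had 587, 727 and 699 CPM in control, 717, 367 and 679 in cKO and 658 in DKO strict cells. On the lower side were Slc22a8, Slc6a13, Slc7a11, Ndnf, Apod, Itih5, Nodal, Igf2, Tgfbi and Flrt2, at log2 fold changes of -6.91 to -5.31. Slc22a8, an organic anion transporter, had 3 UMIs in the strict cells and 1240 in the pericyte-gated cells (ratio 0.00646, counting interval 0.00133 to 0.0189). Slc6a13, a GABA transporter of the fibroblast list, had a pooled level of 308 CPM in all pericyte-gated cells and 56.9 in those with at most 3 fibroblast UMIs. The fit against that smaller set is given above as counts only, so the part of fibroblast RNA in the other differences is not shown gene by gene.

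The same comparison over all 735 gated cells gave 2810 higher (32.5%) and 2901 lower genes (33.5%) of 8651. Its leaders were ciliary genes, Ccdc180 (log2 fold change 7.83), Spef2 (7.71) and Hydin (7.66) first, and all 7 ependymal genes were higher with a median of 6.03, while of the mural and pericyte list all 14 tested genes were lower, with a median of -3.08. The contractile list split into 14 higher and 9 lower of 27. Read over the whole gate, the comparison thus set mostly ciliary cells against pericytes.

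To ask whether the Prdm16 genotype was visible in these cells, the targeted genes were examined first. Prdm16 (chr4:154316125-154636873), which encodes a transcriptional regulator with a PR domain, stood at 29.6, 25.3 and 22.6 CPM in control, 18.2, 6.26 and 14.7 CPM in cKO and 16.7 CPM in the DKO library over all gated cells. The 3 cKO values lay under the 3 control values (exact permutation test, two-sided, p = 0.1, the smallest that 3 against 3 allows). The 2 genotypes were likewise apart, in one direction or the other, for 10.5% of genes tested in these cells. In the edgeR fit Prdm16 had a log2 fold change of -0.86 (SE 0.32, edgeR adjusted p = 0.777). Transcript levels of a floxed gene need not fall to 0, and the deleted exons cannot be told apart in 3′ gene counts. In the strict cells alone Prdm16 had 0, 3 and 15 UMIs in the controls, 2, 1 and 7 in the cKO libraries and 6 in the DKO library, with overlap (exact permutation p = 0.6). Vcam1 (chr3:116109949-116129688), the adhesion molecule deleted in the DKO mice, stood at 15.1, 15.8 and 21.7 CPM in control, 25.6, 38.4 and 42.8 CPM in cKO and 11.6 CPM in the DKO library over all gated cells. The cKO libraries lay above the controls without overlap (exact permutation p = 0.1, edgeR adjusted p = 0.553), again beside 10.5% of genes tested that were apart. The DKO library lay below all others, while the strict cells held 6 Vcam1 UMIs in all. Prm1 (chr16:10796326-10805839), a sperm chromatin gene, had no UMI in the gated cells of the 3 controls. The cKO libraries held 52.3, 25.9 and 166 CPM of Prm1 and the DKO library 51.7 CPM. It was thus found in the gated cells of every library with the Cre driver and of none without. In the strict cells it had 3 UMIs, all in cKO library 3.

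In the 146 strict cells no gene was called between cKO and control (0 of 4085 tested, a background of 0%, by edgeR with Benjamini-Hochberg adjustment; DESeq2 also called 0), and 175 had an unadjusted p under 0.05. The contractile list had 0 of 29 called and a median log2 fold change of -0.12 against 0.01 over all genes tested. Mylk had 1689 ± 137 CPM in control and 1512 ± 363 CPM in cKO (SD, n = 3 libraries each; log2 fold change -0.13, SE 0.29, edgeR adjusted p = 0.999). Des had 694 ± 152 CPM and 539.8 ± 179 CPM (log2 fold change -0.31, SE 0.31, edgeR adjusted p = 0.999), and Pln 763 ± 293 CPM and 508 ± 291 CPM (log2 fold change -0.52, SE 0.46, edgeR adjusted p = 0.999). For all 3 the lowest library was cKO 2, the one with 3 ciliary cells among its 11 strict cells, and the groups overlapped. All 12 tested genes of the calcium and ion list had a negative log2 fold change with a median of -0.35 and 0 called, against 1992 negative genes of all 4085 tested. Of 13 immediate early genes 12 had one, with a median of -0.37 and 0 called, and the transcription factor and vasoactive lists had medians of 0.02 and -0.00 with 0 called. The Notch and PDGF list (9 tested), the TGF-beta and BMP list (15), the interstitial matrix (24), the basement membrane (18) and the mural list (14) had medians of -0.15, -0.15, 0.03, 0.13 and -0.21, again with 0 called.

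The 7 ependymal genes had a median of 3.30 in the same fit with 0 called, and the 5 strict cells with at least 10 ciliary UMIs lay in cKO libraries 2 and 3. Ccdc153 was at 13.2, 0 and 38.8 CPM in the controls, 0, 467 and 321 in the cKO and 36.2 in the DKO strict cells. Leaving out cKO library 1, which had no such cell, gave 49 calls, all higher, and leaving out control library 3 gave 2. Restricting the fit to cells with at most 2 ciliary UMIs gave 0, but left cKO library 2 under the minimum of 10 cells. That library was dropped, so the 0 calls do not show the effect of removing ciliary cells alone. The 2 genes with the lowest p were Tmem47 and S100a6, a membrane protein and a calcium-binding protein, named here after their values were seen. S100a6 (chr3:90612882-90624181) stood at 99.0, 165 and 90.6 CPM in control, 197, 614 and 351 CPM in cKO and 43.4 CPM in the DKO library (log2 fold change 1.80, SE 0.40, edgeR adjusted p = 0.722). Tmem47 (chrX:81070698-81097872) stood at 52.8, 77.5 and 87.4 CPM in control, 156, 327 and 253 CPM in cKO and 50.6 CPM in the DKO library (log2 fold change 1.73, SE 0.34, edgeR adjusted p = 0.238). In both the 3 cKO libraries lay above the 3 controls, as for 8.47% of all genes tested in one direction or the other, and the DKO library lay below the cKO libraries. Fits with the replicate number as a block called these 2 genes and no other (edgeR adjusted p = 0.0164 for each). Whether the numbers pair the libraries is not known, though. Deviations of same-numbered libraries correlated in the strict cells at 0.169, -0.106 and 0.244, and the labels give the numbers no meaning. By the rule of size among uncalled genes without overlap, Cavin2 of caveolae (0 UMIs in the controls and 17.3, 86.7 and 52.8 CPM in the cKO strict cells) and the spermatogenesis gene Meig1 (0, 0 and 9.71 and 11.6, 273 and 121 CPM) stood on the higher side. Both were highest in cKO library 2 and next in cKO library 3, as Ccdc153 was, and S100a6 and Tmem47 had the same order. In the low-share cells Cavin2 was also higher in cKO with the replicate block (log2 fold change 2.00, SE 0.31, edgeR adjusted p = 0.04, mean log2 CPM 7.39). The part of ciliary RNA in S100a6, Tmem47, Cavin2 and Meig1 was not tested. On the lower side was the clock output gene Dbp (39.6, 126 and 38.8 and 5.78, 26.7 and 26.4 CPM), with an edgeR adjusted p of 0.999.

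Over all 735 gated cells 2 of 12391 genes were called, both higher in cKO (0.0161% of genes tested by edgeR), and 679 had an unadjusted p under 0.05. Esr1 (chr10:4611593-5005614), the estrogen receptor alpha, stood at 0.688, 0 and 0.286 CPM in control, 18.2, 47.4 and 29.4 CPM in cKO and 24.0 CPM in the DKO library (log2 fold change 6.11, SE 0.64, edgeR adjusted p = 0.00843). The controls held 2 UMIs in all and the cKO libraries 155, a CPM ratio of 77.0 with a 95% counting interval of 21.0 to 642. The fitted fold change and its SE thus depend on the prior count. Ucma (chr2:4976122-4985748), a secreted matrix protein first known from cartilage, stood at 71.6, 91.6 and 62.0 CPM in control, 200.2, 344 and 384 CPM in cKO and 426 CPM in the DKO library (log2 fold change 2.16, SE 0.29, edgeR adjusted p = 0.0493). All cKO libraries were above all controls, with the DKO library highest. Non-overlap of the 3 cKO and 3 control libraries held for 1303 genes, 10.5% of those tested. The labels give the replicate numbers no meaning, so whether they pair the libraries is not known. A block on the number was chosen from correlations in these same counts, so its calls are not independent of them. With the number as a block 37 genes were called (34 higher, 3 lower), Esr1 and Ucma among them. Leaving out control library 1 or 3 gave 0 calls, leaving out control library 2, cKO library 2 or the DKO library gave 1, and leaving out cKO library 1 gave 68.

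The low-share cells gave more calls. In these 589 cells 16 genes were higher and 1 lower in cKO of 12114 tested (0.14%, edgeR), and 107 were called with the replicate block, the 17 among them. Esr1 had 0.768, 0 and 0.313 CPM in control and 20.0, 52.7 and 32.7 CPM in cKO low-share cells, and 0 in all control and 0, 13.3 and 3.77 CPM in the cKO strict cells. Id3 (chr4:136143497-136145755), an inhibitor of bHLH factors that BMP signalling induces, stood at 122, 113 and 95.2 CPM in control, 246, 352 and 319 CPM in cKO and 209.6 CPM in the DKO library (log2 fold change 1.55, SE 0.20, edgeR adjusted p = 0.0185). The strict cells had more of it, with overlapping genotypes: 1438, 1677 and 1554 CPM in control, 1879, 1101 and 1030.5 CPM in cKO and 608 CPM in the DKO library (log2 fold change -0.19, SE 0.30). The test of the difference between the 2 cell groups' cKO effects gave -1.70 for Id3 (SE 0.33, edgeR adjusted p = 0.397). It called 0 of 6488 genes, with 550 at an unadjusted p under 0.05, so a genotype effect particular to one of the 2 groups was not shown. Cntf (chr19:12763660-12765632), a neurotrophic cytokine of glia, stood at 13.8, 0 and 16.3 CPM in control, 57.6, 76.4 and 72.3 CPM in cKO and 45.3 CPM in the DKO library (log2 fold change 2.31, SE 0.31, edgeR adjusted p = 0.0207). Cxcl14 (chr13:56288643-56296551), a chemokine and the one gene that fell, stood at 22.3, 32.8 and 21.9 CPM in control, 5.29, 3.10 and 4.88 CPM in cKO and 23.5 CPM in the DKO library (log2 fold change -2.29, SE 0.34, edgeR adjusted p = 0.0249). In both genes the cKO and control libraries were apart, as for 12.3% of genes tested, and for Cxcl14 the DKO library lay with the controls. The cell adhesion gene Opcml rose by a log2 fold change of 2.89, the pentraxin Ptx3 by 3.09, reelin (Reln) by 2.65, Tmem100 by 2.60 and C1ql3 by 2.45. Gm2115 (2 UMIs in the controls and 72 in cKO) and Gm48050 (7 and 132) had CPM ratios of 35.9 and 18.8 with counting intervals of 9.59 to 302 and 8.88 to 47.7. Leaving out 1 library at a time gave 0 calls without control library 2 or 3, 1 without control library 1, 145 without cKO library 1, 11 without cKO library 2 and 4 without cKO library 3.

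Esr1, Id3 and Ucma were also read in ciliary cells that the gate left out. In kept cells with at least 10 ciliary UMIs outside the gate, Esr1 stood at 1.01, 0 and 0.465 CPM in control and 16.3, 31.3 and 33.8 CPM in cKO. Id3 stood at 62.5, 147 and 91.6 and 238, 243 and 308 CPM, and Ucma at 53.9, 69.9 and 64.8 and 98.6, 283 and 316 CPM. All 3 were apart between the genotypes there too, in cells with fewer than 5 gate UMIs or with a UMI of an excluded gene. The 3 genes were read there because they had been called in gated cells of the same libraries, so this is not independent of those calls. The share of all genes that were apart in these outside cells was not counted. With only gated cells of at most 2 ciliary UMIs, 0 of 5417 genes were called over the whole gate.

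**Figure D5:**
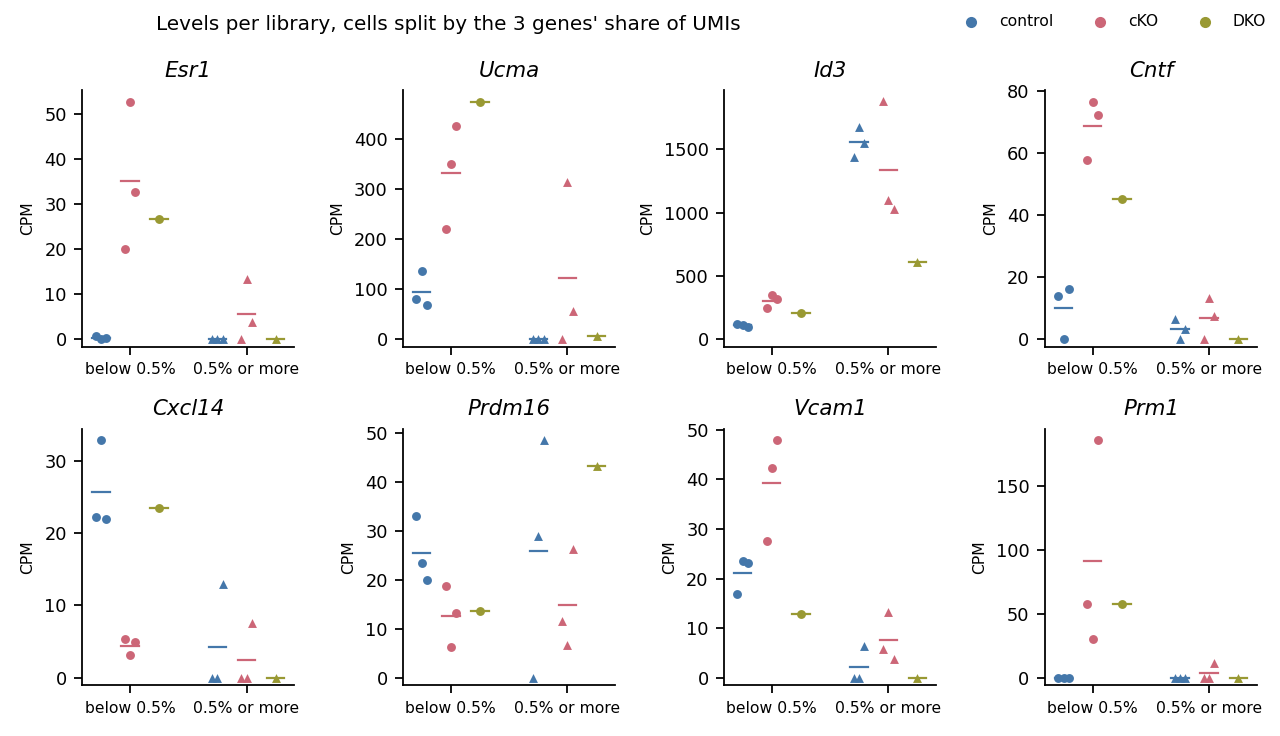
CPM per library of 8 genes in the gated cells below 0.5% (circles, left in each panel) and at 0.5% or more (triangles, right), coloured by genotype, with a bar at the mean of each group. Esr1, Ucma, Id3 and Cntf are higher and Cxcl14 lower in the 3 cKO libraries among the low-share cells, while in the strict cells the genotypes overlap or rest on few UMIs.

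By the rule of size among genes short of a call in all gated cells, the higher genes were Prm1, Gm48050, the complement gene C4b, Lyg2 and 2210011C24Rik, and the lower genes the collagen chain Col6a5, the calcium channel subunit Cacna1s, Gm40761, the adaptor Fyb and Gm26802. C4b stood at 5.51, 0 and 4.57 CPM in control, 15.5, 42.9 and 63.1 CPM in cKO and 41.5 CPM in the DKO library. Col6a5 stood at 135, 129.6 and 133 CPM in control, 38.4, 3.58 and 8.65 CPM in cKO and 37.8 CPM in the DKO library. The 2 genotypes were apart in C4b and Col6a5, but the rule named only genes without overlap, so the choice of genes fixed this. Their edgeR adjusted p-values were 0.436 and 0.526, and in the strict cells Col6a5 had 0, 0 and 9.71 CPM in control and 0, 0 and 0 in cKO, so its signal lay with the low-share cells as well. The contractile list over all gated cells had a median of -0.41 with 27 of 29 genes negative and 0 called, against 6130 negative genes of all 12391 tested. Without control library 2 that median was 0.07, so the direction rests on this library. Beside it, strict cells gave 10.4%, 32.6% and 8.82% of the gated UMIs in control libraries 1 to 3 and 9.24%, 13.4% and 11.5% in the cKO libraries.

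The share of kept cells that passed the gate was 1.33%, 0.528% and 2.20% in control libraries and 2.00%, 3.48% and 1.92% in cKO libraries, with overlap, and 1.25% in the DKO library (exact 95% binomial interval 0.999% to 1.54%, counting error only). The means were 1.35% ± 0.836 and 2.46% ± 0.880 (SD, n = 3 libraries each), a difference of 1.11 points that did not pass the exact permutation test (two-sided, p = 0.3, where 0.1 is the smallest possible). The strict cells made up 0.311%, 0.232% and 0.410% of kept cells in control, 0.338%, 0.589% and 0.374% in cKO and 0.232% in the DKO library (exact 95% binomial interval 0.133% to 0.377%). Their difference was 0.116 points (exact permutation p = 0.4). Between libraries made with the same Cell Ranger version the difference in the gated share was 1.81 points for version 6.0.1 (2 controls and 2 cKO) and -0.282 points for version 6.1.1 (1 of each), so the direction was not the same in both. In libraries cKO 2 and cKO 3 fewer than 50% of barcodes passed the filters on genes and mitochondrial counts, against 70.2% to 74.7% in the others, and the part of this loss in the shares was not tested.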

How the data were processed

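The authors dissociated V-SVZ tissue of 2 to 3 pooled mice per library with papain, prepared 10x Chromium 3′ libraries and deposited raw UMI counts per gene and cell from Cell Ranger (6.1.1 in the submitters' processing notes; the file headers give 6.0.1 for 4 libraries and 6.1.1 for 3) on mm10. Nothing was normalized before deposit. The 7 libraries held 65049 barcodes and 585308747 UMIs (45758003 to 141353017 per library), and 43346 cells were kept (1868 to 9502). The members and all gene lists were chosen with earlier results of these data known.

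From the counts, UMIs were summed per library over the gated cells, with CPM as counts per 1000000 of that sum. Summed counts were tested with edgeR 4.0.16 (quasi-likelihood, TMM, filterByExpr, Benjamini-Hochberg, threshold 0.05) in R 4.3.3, with all 7 libraries sharing the spread in genotype fits and the library as a block against pericyte-gated cells. Libraries needed at least 10 cells of a set. p-values measure the spread between libraries, each a pool of mice. The SE beside an edgeR log2 fold change is its absolute value divided by the square root of the F statistic. For genes with few UMIs on one side this SE is narrower than the counting error. Gate genes were tested in no comparison with pericytes. Correlations of same-numbered libraries' deviations over 8314 genes were 0.289, 0.129 and 0.264 in the gated cells. Over 3997 genes in the strict cells they were 0.169, -0.106 and 0.244. The labels give the numbers with no stated meaning, so whether they pair the libraries is not known. Fits with the number as a block are alternatives only. The control and cKO libraries numbered 3 were both made with Cell Ranger 6.1.1 and those numbered 1 and 2 with 6.0.1. For number 3, pairing and version cannot be told apart. Doublets were marked with Scrublet through scanpy 1.11.5 and kept. Shares were compared with exact permutation tests (scipy 1.17.1). Intervals are exact at 95% and cover counting error only. The fits were run on simulated counts with known changes, a fixed dispersion and no mixture of cell types. The strict cells differ from this setting, so the run does not show what could be detected in them. DESeq2 1.42.0 was an alternative. Named genes were those of the lists; up to 10 called genes per direction by size; where fewer than 10 were called, the 5 largest per direction with an unadjusted p under 0.05, a mean log2 CPM from 4 up and no overlap; against pericytes, the 10 largest per direction whose mean log2 CPM reached 6; and the 20 highest ratios to other kept cells with at least 100 CPM. Further alternatives (cells with few ciliary or fibroblast UMIs, the split at 0.5% for the genotype fits, and libraries 1 and 3 alone) were chosen after seeing the data. Some results for single genes are not reported here.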

Additional observations from a re-analysis of the deposited data

Results flagged for a closer look

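The DKO library helped to estimate the spread in the fits, but no test compared it with the controls. Of 5 genes looked at for this (the 2 called in all gated cells, Prdm16, Vcam1 and Prm1), 3 stood above the highest control library in its gated cells: Esr1 at 24.0 CPM, against at most 0.688 CPM in a control, Ucma at 426 CPM, against at most 91.6 CPM, and Prm1 at 51.7 CPM, against 0 in all 3 controls. These values come from 1 library and carry no estimate of spread. In its 16 strict cells Esr1 and Prm1 were at 0.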

How the results depend on the processing

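For cKO against control over all gated cells, the 2 calls became 35 with DESeq2, 1 with upper-quartile normalization, 115 with no filter on low counts, 1 without Gm42418, AY036118, Malat1 and mitochondrial genes, 22 with the Cell Ranger version as a block, 6 at no more than 5% mitochondrial counts, 13 and 8 with gates of at least 3 and 10 UMIs, and 0 with the 0.5% gate, with at most 2 ciliary UMIs, or with libraries 1 and 3 alone. Leaving out 1 library gave 0 to 68. In the strict cells the 0 calls became 55 with no filter, and 0 to 49 on leaving out 1 library. In the low-share cells the 17 calls became 45 with DESeq2, 216 with no filter, 57 with the version block, and 0 to 145 on leaving out 1 library. With the replicate number as a block, the counts were 37, 2 and 107, though whether the numbers pair the libraries is not known. The replicate block changed no call of Prdm16 or Vcam1, at log2 fold changes of -0.79 and 1.00. Against pericytes, the 5711 calls over all gated cells became 3698 at no more than 5% mitochondrial counts, 1901 with the 0.5% gate and 1673 with at most 2 ciliary UMIs, with 5107 to 6180 on leaving out 1 library. The 1901 calls of the strict cells became 1077 with pericyte-gated cells of at most 3 fibroblast UMIs, 1499 with DESeq2, 1662 with no library block and 1589 to 1887 on leaving out 1 library. The difference in gated share was 0.116 points with the 0.5% gate, 0.142 with at most 2 ciliary UMIs, -0.282 within version 6.1.1 and 0.602 to 1.53 on leaving out 1 library; paired by replicate number it was 1.11 points (exact permutation p = 0.5, the smallest possible being 0.25). Apart from fewer genes or samples entering a fit, the cause was not tested. The strict cells could not be fitted at no more than 5% mitochondrial counts, since too few cells per library remained, and held no doublets to remove. The genotype fits of the strict cells rest on 11 to 39 cells per library.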

Other observations

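Gene groups outside the vascular lists also differed between the strict and the pericyte-gated cells, where 19.4% of all 4980 genes tested were higher and 18.8% lower. Of 13 immediate early genes tested 12 were higher in the strict cells and 1 lower, with a median log2 fold change of 0.99 against -0.06 over all genes tested, Fos among the higher (log2 fold change 2.12, SE 0.30, edgeR adjusted p = 0.00143). Of 76 cytosolic ribosomal protein genes 75 were higher with a median of 0.86, of 77 nuclear genes of the respiratory chain and ATP synthase 41 were higher and 1 lower with a median of 0.34, and of 13 mitochondrially encoded genes 11 were higher with a median of 0.45. Heat shock genes had 3 of 11 called, all higher, near the share over all genes. The strict cells also had more UMIs per cell, with a median of 8053.5 against 3960 in the pericyte-gated cells, and the part of this in the counts was not tested.

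Over all gated cells, 4 of 4 tested red blood cell genes had positive log2 fold changes between cKO and control with a median of 3.43 and 0 called. Without cKO library 3 that median was -0.85, and in the low-share cells the list made up 0.414% of UMIs in cKO library 3 against 0.00288% and 0.00867% in cKO libraries 1 and 2 and 0.00353% to 0.0136% in the controls. Of 10 fibroblast genes 7 were positive with a median of 1.43 and 0 called. Without cKO library 2 the fibroblast median was -0.63 and without the DKO library 0.18, and the fibroblast list made up 0.268% of low-share UMIs in cKO library 2 against 0.0208% and 0.0153% in cKO libraries 1 and 3 and 0.0138% to 0.165% in the controls.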
